A study of Homo sapiens with 4 samples.

Results

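The genes described here are NFE2L2, which encodes the transcription factor NRF2, its repressor KEAP1 and 8 antioxidant and detoxification genes known as NRF2 targets: NQO1, HMOX1, GCLC, GCLM, TXNRD1, SRXN1, AKR1C1 and AKR1B10. They were found by their symbols in the count tables, which held 1 row for each of the 10 among 60623 genes, and all 10 were among the 17058 genes with enough counts to be tested. The study asked which genes depend on YEATS2, a reader of acylated histone lysines and a subunit of the ATAC acetyltransferase complex, in head and neck cancer. RNA-seq was performed on BICR10, an established human head and neck cancer line, transduced with lentivirus. The virus carried a control hairpin (shControl, 2 libraries) or hairpin RNA against YEATS2 (shYEATS2, 2 libraries). The study lists 2 hairpins against YEATS2, and neither it nor the labels say whether these libraries carried 1 or both. All 4 libraries came from puromycin-selected cells of this 1 line, and the RNA was polyA-enriched and sequenced as pairs of 150-base reads. The study describes its replicates in general as biological, but neither it nor the labels say how the 2 libraries of a group arose. The p-values thus rest on the spread between these libraries, which may be technical. The estimate of this spread is shared across genes by edgeR, so a test rests only in part on the gene's own libraries. In shYEATS2 this spread could also hold a difference between hairpins, which was not tested.

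NRF2 is a basic leucine zipper factor that is held at a low level by KEAP1, an adaptor that brings it to the CUL3 ubiquitin ligase for degradation. Electrophiles and oxidants modify KEAP1, NRF2 then accumulates, pairs with a small MAF protein and binds antioxidant response elements near genes for quinone reduction, glutathione synthesis, the thioredoxin system, NADPH supply and iron storage. Because much of this control acts on the protein, mRNA levels of NFE2L2 and KEAP1 do not measure NRF2 activity, and no protein was measured here.

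The totals on genes ran from 39824898 to 47297970 counts in the shControl libraries and from 11334133 to 24072396 in the shYEATS2 libraries, so depth and hairpin cannot be told apart by design. YEATS2 was at 66.1 and 66.7 CPM (counts relative to the TMM-scaled library total, in units of 1e-06) in shControl and at 29.2 and 29.1 CPM in shYEATS2, a log2 fold change of −1.19 ± 0.08 (SE, n = 2 per group; edgeR's quasi-likelihood test, adjusted p = 3.6e-21). Of 9 epithelial markers only KRT5, KRT8, KRT18 and SFN were over 1 CPM in every library, and their list summed to 522 to 528 CPM in shControl and 317 to 342 CPM in shYEATS2. Of 9 fibroblast markers 7 were over 1 CPM in every library, with sums of 7212 to 7302 CPM in shControl and 2224 to 2363 CPM in shYEATS2. Endothelial markers summed to 44.2 to 45.4 CPM and 23.0 to 24.5 CPM with CLDN5 at 0, and the 7 immune markers to at most 2.04 CPM with CD3E and CD68 at 0. The markers TP63, KRT17, EPCAM and KRT14 were at most at 1.23 CPM in any library, so the epithelial label was met by some of its markers and not by others. These sums were lower in both shYEATS2 libraries for the epithelial, fibroblast and endothelial lists, but not for every marker. CDH1 rose from 0.353 and 0.318 CPM to 2.84 and 2.12 CPM. The endothelial VWF, on few counts and not tested, was at 0.132 and 0.0794 against 0.276 and 0.339 CPM. SFN (130 and 130 against 136 and 126 CPM), PECAM1 (1.61 and 1.24 against 1.30 and 1.87 CPM) and the fibroblast marker FAP (12.7 and 13.8 against 13.4 and 10.6 CPM) overlapped. THY1 and TP63, both under 1 CPM, overlapped too. The epithelial sum was led by KRT8, which was at 269 and 264 CPM in shControl and at 123 and 115 CPM in shYEATS2. The fibroblast sum was led by COL1A1, at 2845 and 2747 against 927 and 855 CPM. The part of these markers in the results below was not tested. In bulk RNA, fewer cells of a type and less RNA per cell cannot be told apart.

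The 10 genes did not move as a unit. NFE2L2 and AKR1B10 rose in shYEATS2, HMOX1, NQO1, AKR1C1 and GCLC fell, and KEAP1, GCLM, TXNRD1 and SRXN1 did not pass the test (edgeR's quasi-likelihood test, where a call needs p under 0.05 after Benjamini-Hochberg adjustment). Thus 2 of 10 were called higher, beside 22.6% of all tested genes, and 4 of 10 were called lower, beside 23.6%. Their median log2 fold change was −0.02, against −0.01 over all tested genes. With a change of at least 2-fold also required, 0 members were called higher (5.99% of all tested genes) and 1 was called lower, HMOX1 (3.70% of all tested genes). Both shYEATS2 libraries lay above both shControl libraries for 4 members, as they did for 35.3% of all tested genes, and below them for 4 members, as for 36.3%. Called by DESeq2, 3 members were higher (16.5% of all tested genes) and 4 lower (17.3%), the added gene being TXNRD1. Scaling by library totals alone moved the median of all tested genes to 0.13 and that of the members to 0.12, and then 4 members were called higher (31.9% of all tested genes) and 4 lower (15%), with 5441 genes called higher and 2567 lower in place of 3857 and 4019.

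**Figure D1:**
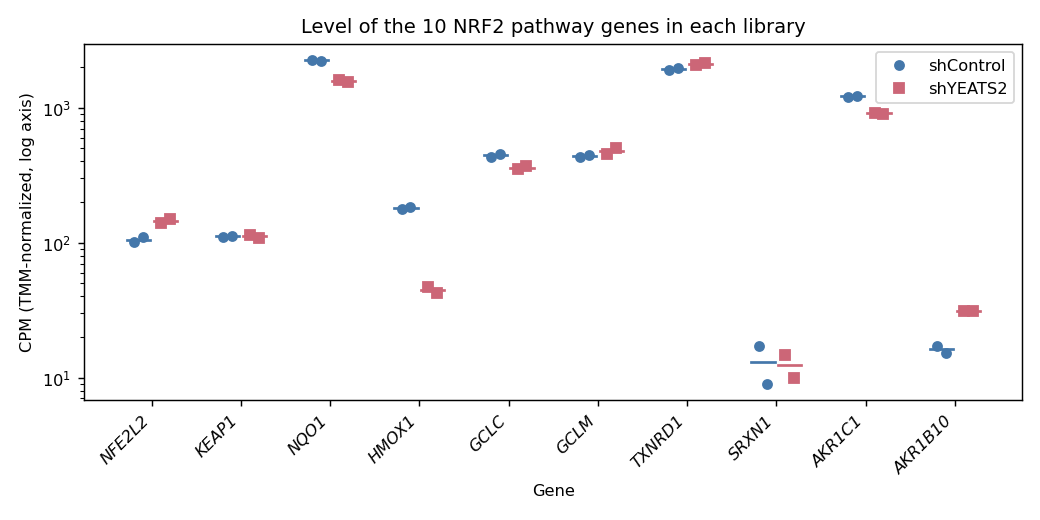
Level of each of the 10 genes in every library, in TMM-scaled CPM on a log10 axis. Points are single libraries, 2 of shControl and 2 of shYEATS2. HMOX1 lies at 177 and 185 CPM in shControl and at 46.9 and 42.0 CPM in shYEATS2, while KEAP1 stays between 108 and 114 CPM and the SRXN1 libraries of the 2 groups interleave.

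The regulator and its repressor were considered first. NFE2L2 (ENSG00000116044, chr2:177218667-177392756, minus strand, GRCh38 with GENCODE 44 as for all positions here) was at 101 and 109 CPM in shControl and at 140 and 150 CPM in shYEATS2. Both shYEATS2 libraries were above both controls, and the transcript rose by 0.46 ± 0.06 on the log2 scale (95% interval 0.33 to 0.58; edgeR's quasi-likelihood test, adjusted p = 1.2e-08). KEAP1 (ENSG00000079999, chr19:10486125-10503558, minus strand) was at 111 CPM in both shControl libraries and at 114 and 108 CPM in shYEATS2, so the groups overlapped. Its log2 fold change was 0.00 with a 95% interval of −0.12 to 0.13 (edgeR's quasi-likelihood test, adjusted p = 0.970), an interval that leaves out changes of the size seen for NFE2L2. Within each library, the ratio of NFE2L2 to KEAP1 CPM was 0.911 and 0.983 in shControl and 1.23 and 1.38 in shYEATS2. By annotation, 38.4% of the exon bases of NFE2L2 lie under other genes, mainly HNRNPA3 and AGPS on the opposite strand. The libraries were made with a stranded mRNA kit, but the strand setting of the counting is not given in the sources used here. HNRNPA3 fell by 0.58 and AGPS by 0.33 on the log2 scale, both opposite to NFE2L2 (adjusted p = 3.1e-12 and 4.9e-05, edgeR's quasi-likelihood test).

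Of 15 other regulators of the pathway, all tested, 7 were called higher (46.7%) and 2 lower (13.3%), beside the 22.6% and 23.6% of all tested genes, with a median log2 fold change of 0.18. BACH1, a repressor that competes with NRF2 for the same elements and is best known for silencing HMOX1, was at 46.6 and 48.0 CPM in shControl and at 60.6 and 65.7 CPM in shYEATS2. It rose by 0.41 on the log2 scale, and BACH1 per NFE2L2 was 0.461 and 0.439 in shControl against 0.434 and 0.439 in shYEATS2, where the groups overlapped. The small MAF proteins are the dimer partners of both NRF2 and BACH1. MAFF rose from 6.37 and 6.62 CPM to 31.4 and 28.9 CPM, a log2 fold change of 2.23, and MAFK rose by 0.64, while MAFG had a log2 fold change of 0.13 and was not called. MAFF per MAFG thus went from 0.0668 and 0.0677 in shControl to 0.302 and 0.270 in shYEATS2. The NRF2 relatives NFE2L1, which drives proteasome genes, and NFE2L3 rose by 0.44 and 1.72, and CUL3, the scaffold of the ligase that KEAP1 serves, rose by 0.49. PGAM5, a mitochondrial phosphatase that binds KEAP1, was called higher at 0.18 by edgeR's quasi-likelihood test (adjusted p = 0.049) but not by DESeq2 (adjusted p = 0.151), nor without either shControl library or the first shYEATS2 library (adjusted p = 0.149, 0.399 and 0.554). RBX1, the RING subunit of the same ligase, fell by 0.43, and DPP3, a peptidase that binds KEAP1, fell by 0.72. SQSTM1, which draws KEAP1 into autophagy, had a log2 fold change of 0.09, BTRC, an adaptor of another NRF2 ligase, −0.08, and PALB2, a KEAP1-binding repair protein, 0.06, and none of them was called. BACH2 at 1.47 and NFE2, an erythroid relative of NRF2, at −1.07 were also not called, both on few counts. Under 13 alternatives each, SQSTM1 passed as higher in 2 and MAFG in 1. BACH2 passed with limma-voom (adjusted p = 0.026) and with library totals alone (adjusted p = 0.044), and without 1 library it ranged from 0.89 to 2.57 (without the second and the first shControl library) and was not called.

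Among the 10 genes HMOX1 had the largest change. This gene (ENSG00000100292, chr22:35380361-35394214, plus strand) encodes heme oxygenase 1, which breaks heme down to biliverdin, carbon monoxide and iron. It was at 177 and 185 CPM in shControl and at 46.9 and 42.0 CPM in shYEATS2. The shYEATS2 libraries were far below both controls, at a mean of 44.5 ± 3.49 CPM against 181 ± 5.61 CPM (SD, n = 2 each), or 24.7% of the control level. The log2 fold change was −2.02 ± 0.07 (95% interval −2.15 to −1.88; edgeR's quasi-likelihood test, adjusted p = 9.7e-36). HMOX2, the constitutive isoenzyme, was called lower at −0.17 by edgeR's quasi-likelihood test (adjusted p = 0.040) but not by DESeq2 (adjusted p = 0.132), nor without either shControl library or the second shYEATS2 library (adjusted p = 0.139, 0.243 and 0.099). HMOX1 per HMOX2 went from 2.81 and 2.85 in shControl to 0.796 and 0.780 in shYEATS2. Around heme and iron, 4 of 7 tested genes, HMOX2 among them, were called lower (57.1%, beside 23.6% of all tested genes) and 0 higher (beside 22.6%), with a median log2 fold change of −0.17. FTH1, the ferritin heavy chain that stores the released iron, was at 7102 and 6869 CPM in shControl and at 4606 and 4425 CPM in shYEATS2 and fell by 0.63. The ferritin light chain FTL fell by 0.39 and FECH, the last enzyme of heme synthesis, by 0.34.

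NQO1 (ENSG00000181019, chr16:69706996-69726668, minus strand), the quinone reductase that is the usual reporter of NRF2 activity, was at 2254 and 2238 CPM in shControl and at 1604 and 1556 CPM in shYEATS2. The groups were well apart and the level in shYEATS2 was 70.4% of that in shControl, a log2 fold change of −0.51 ± 0.06 (edgeR's quasi-likelihood test, adjusted p = 3.2e-11). Of its exon bases 19.4% lie under AC092115.2, a gene on the opposite strand at 2.96 to 5.56 CPM. NQO1 uses NADPH or NADH, and of 6 genes of NADPH supply 3 were called lower and 1 higher (50% and 16.7%, beside 23.6% and 22.6% of all tested genes). PGD, an enzyme of the pentose phosphate pathway, fell by 0.68, whereas the cytosolic isocitrate dehydrogenase IDH1 rose by 0.66.

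**Figure D2:**
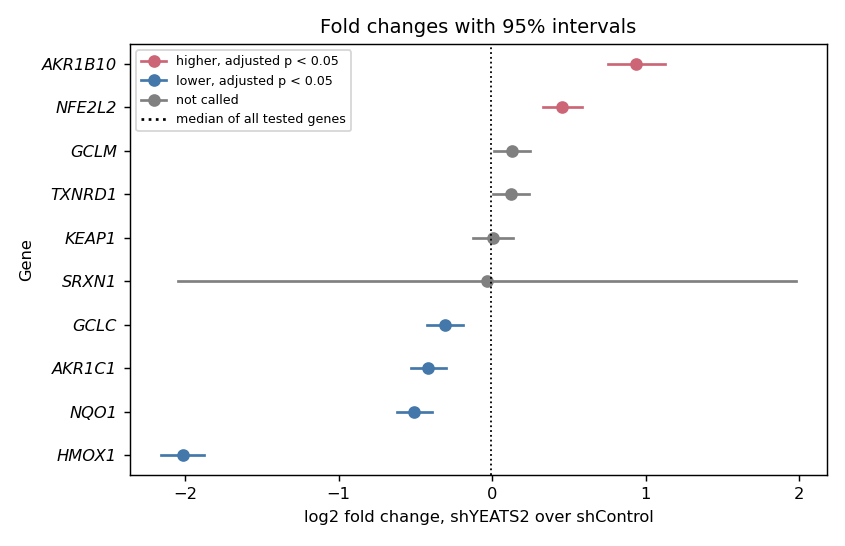
Log2 fold change of each of the 10 genes in shYEATS2 against shControl (x axis), with the 95% interval of edgeR's quasi-likelihood fit as a bar. HMOX1 stands at −2.02 and AKR1B10 at 0.94, the interval of KEAP1 spans 0, and that of SRXN1 runs from −2.05 to 1.98.

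Glutamate-cysteine ligase, the first and limiting enzyme of glutathione synthesis, has a catalytic subunit encoded by GCLC and a modifier subunit encoded by GCLM. GCLC was called lower and GCLM was not called. GCLC (ENSG00000001084, chr6:53497341-53616970, minus strand) was at 431 and 457 CPM in shControl and at 350 and 368 CPM in shYEATS2. Both shYEATS2 libraries were lower, at 80.8% of the control mean, and GCLC fell by 0.31 ± 0.06 on the log2 scale (edgeR's quasi-likelihood test, adjusted p = 1.1e-05). GCLM (ENSG00000023909, chr1:93885199-93909456, minus strand) was at 434 and 443 CPM in shControl and at 456 and 504 CPM in shYEATS2. These groups did not overlap, but the log2 fold change of 0.13 (95% interval 0.01 to 0.25) did not pass the test (edgeR's quasi-likelihood test, adjusted p = 0.066). Without the first shYEATS2 library it was 0.19 and passed (adjusted p = 0.0020), without the second it was 0.051 and did not (adjusted p = 0.472), nor did it without either shControl library (adjusted p = 0.357 and 0.228). With counts thinned to the smallest library total it passed (adjusted p = 0.026). The ratio of GCLM to GCLC within a library was 1.01 and 0.970 in shControl and 1.30 and 1.37 in shYEATS2. The annotation puts 9.68% of the exon bases of GCLC under other genes, among them the noncoding AL033397.1 on the same strand, which was at 21.5 and 21.4 CPM in shControl and at 44.1 and 48.5 CPM in shYEATS2.

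Of 12 other glutathione genes tested, 5 were called higher and 5 lower (41.7% each, beside 22.6% and 23.6% of all tested genes). CHAC1, an enzyme that degrades glutathione, rose from a mean of 3.10 to 24.0 CPM, a log2 fold change of 2.97, the largest of the list. Glutaredoxin GLRX rose by 0.68 and the glutathione transferase GSTA4 fell by 0.46. SLC7A11, the cystine transporter subunit often used as an NRF2 target and named here after its value was seen, had a log2 fold change of −0.01 (edgeR's quasi-likelihood test, adjusted p = 0.947).

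TXNRD1 (ENSG00000198431, chr12:104215779-104350307, plus strand) encodes cytosolic thioredoxin reductase, which returns thioredoxin to its reduced form. It was at 1921 and 1956 CPM in shControl and at 2079 and 2147 CPM in shYEATS2. The shYEATS2 libraries were the higher ones, with a log2 fold change of 0.12 (95% interval 0.01 to 0.24) that did not pass edgeR's quasi-likelihood test (adjusted p = 0.075) and passed with DESeq2 (adjusted p = 0.039) and limma-voom (adjusted p = 0.029). Without the first shYEATS2 library it was 0.13 and passed (adjusted p = 0.031), and without each of the other libraries in turn it did not (adjusted p = 0.129 to 0.412). NQO1 per TXNRD1, both at high levels and so well counted, went from 1.17 and 1.14 in shControl to 0.772 and 0.725 in shYEATS2. Among 10 other genes of the thioredoxin system 2 were called higher (20%, beside 22.6% of all tested genes) and 5 lower (50%, beside 23.6%), with a median log2 fold change of −0.13. SESN2, a stress-induced sestrin, rose by 2.28, and the peroxiredoxin PRDX5 fell by 0.49. SESN1 was called lower at −0.31 by edgeR's quasi-likelihood test (adjusted p = 0.031), and DESeq2 did not call it (adjusted p = 0.172), nor did edgeR without either shControl library or the second shYEATS2 library (adjusted p = 0.192, 0.081 and 0.087).

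SRXN1 (ENSG00000271303, chr20:646615-653200, minus strand) encodes sulfiredoxin, which repairs over-oxidised peroxiredoxins. It was at 17.0 and 8.92 CPM in shControl and at 14.6 and 9.93 CPM in shYEATS2, from 773, 337, 371 and 117 counts. The libraries of 1 group differed more than the groups did, and the log2 fold change of −0.04 ± 0.53 had a 95% interval of −2.05 to 1.98, too wide to show a change of 2-fold either way (edgeR's quasi-likelihood test, adjusted p = 0.967). The gap of 1.91-fold between the shControl libraries was exceeded by only 2 of 1916 genes at a mean of 10 to 20 CPM, whose median gap was 1.06-fold. Without the first shControl library the log2 fold change was 0.51 (adjusted p = 0.0099), and without the second it was −0.43 (adjusted p = 0.015), so the direction rests on 1 library. In the annotation 90.7% of the exon bases of SRXN1 lie under ENSG00000270299 on the same strand, a gene listed at 0 in all 4 libraries, and 90.2% of the 150-base windows of the SRXN1 transcript are shared with it, so counts of SRXN1 are uncertain.

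The promoters of GCLM and TXNRD1 are shown for the core of the antioxidant response element, TGACNNNGC, searched on both strands. Of the 8 members with a RefSeq promoter, these genes alone have a window that holds it. As stated above, neither gene was called by edgeR's quasi-likelihood test. Each window has 250 bases before and 50 after the RefSeq start site on GRCh38.p14, is written 5′ to 3′ on the strand of the gene, and has the matches in capitals. HMOX1 and AKR1B10 had no entry. The GCLM window is chr1:93909381-93909680, minus strand, and that of TXNRD1 is chr12:104215529-104215828, plus strand.
GCLM: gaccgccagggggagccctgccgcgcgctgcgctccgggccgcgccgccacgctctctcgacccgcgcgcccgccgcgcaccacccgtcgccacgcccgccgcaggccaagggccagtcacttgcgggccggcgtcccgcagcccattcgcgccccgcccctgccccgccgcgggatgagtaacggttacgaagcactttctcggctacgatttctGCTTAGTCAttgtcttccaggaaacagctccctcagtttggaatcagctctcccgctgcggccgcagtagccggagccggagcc
TXNRD1: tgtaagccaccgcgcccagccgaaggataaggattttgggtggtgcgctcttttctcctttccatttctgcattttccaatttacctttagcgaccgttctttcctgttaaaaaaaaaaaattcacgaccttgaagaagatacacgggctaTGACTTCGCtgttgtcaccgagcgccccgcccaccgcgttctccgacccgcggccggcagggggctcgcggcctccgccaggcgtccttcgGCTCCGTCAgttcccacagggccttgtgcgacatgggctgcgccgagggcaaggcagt
In GCLM the core reads TGACTAAGC on the opposite strand, and its leftmost base as printed lies 34 bases before the start site. In TXNRD1 a copy reading TGACTTCGC starts 99 bases before. A copy on the opposite strand, TGACGGAGC, has its leftmost base as printed 8 bases before and reaches into the start site. The core was in 2 of 8 members (25%), in 15 of 60 other pathway genes with a promoter (25%), and in 13.3% of all 35116 windows. With an A required after the core, it was in 1 of the 8 (12.5%), in 5 of the 60 other pathway genes (8.33%) and in 3.17% of all windows. A match here is a description of letters, and the window does not reach distal elements.

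AKR1C1 and AKR1B10 belong to the aldo-keto reductases, NADPH-dependent enzymes that reduce aldehydes and ketones, including steroids and lipid peroxidation products, and they moved in opposite directions. AKR1C1 (ENSG00000187134, chr10:4963253-4983283, plus strand) was at 1206 and 1219 CPM in shControl and at 920 and 895 CPM in shYEATS2. It stood at 74.9% of the control mean with no overlap between the groups, a log2 fold change of −0.42 ± 0.06 (edgeR's quasi-likelihood test, adjusted p = 7.2e-09). AKR1B10 (ENSG00000198074, chr7:134527567-134541412, plus strand), which is known to reduce retinal as well as aliphatic aldehydes, was at 17.0 and 15.3 CPM in shControl and at 31.0 and 31.1 CPM in shYEATS2. It rose to 192% of the control mean, a log2 fold change of 0.94 ± 0.09 (edgeR's quasi-likelihood test, adjusted p = 2.2e-13), the largest rise among the 10 genes.

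Close paralogs of each were counted as separate genes. AKR1C2 was at 2411 and 2406 CPM in shControl and at 1477 and 1457 CPM in shYEATS2 and fell by 0.72, more than AKR1C1, so AKR1C2 per AKR1C1 went from 1.999 and 1.97 to 1.60 and 1.63. AKR1C3 had a log2 fold change of −0.06 (edgeR's quasi-likelihood test, adjusted p = 0.448), and AKR1C3 per AKR1C1 went from 0.740 and 0.760 to 0.962 and 0.965. AKR1C4 had 2 counts in each shControl library and 0 in each shYEATS2 library and was not tested. Summed, the AKR1C genes were at 4510 and 4551 CPM in shControl and at 3283 and 3216 CPM in shYEATS2. The transcripts of AKR1C1, AKR1C2 and AKR1C3 share stretches of sequence. Of the 150-base windows of AKR1C1, 7.91% also occur in AKR1C2. Of those of AKR1C2, 17.2% occur in AKR1C1 or AKR1C3, and of those of AKR1C3, 2.12% occur in AKR1C2. Reads from these could be dropped or split by the counting. AKR1B10 shared no such window with a relative. Its neighbour AKR1B15 was at 59.7 and 61.7 CPM in shControl and at 44.6 and 43.1 CPM in shYEATS2 and fell by 0.46, and AKR1B1, aldose reductase, fell by 0.44. AKR1B10 per AKR1B15 accordingly went from 0.285 and 0.248 to 0.694 and 0.720, and the sum of these neighbours had a log2 fold change of −0.04 (adjusted p = 0.693, edgeR's quasi-likelihood test).

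The promoters of AKR1C1 and AKR1C2 are shown because the genes fell by different amounts and these RefSeq start-site windows are nearly identical. The annotated AKR1C2 gene extends upstream of its window, to chr10:5018031, and other start sites were not compared. The windows are chr10:4963165-4963464, plus strand, and chr10:5003808-5004107, minus strand, from the same RefSeq set, and capitals mark bases that differ or have no partner in the alignment.
AKR1C1: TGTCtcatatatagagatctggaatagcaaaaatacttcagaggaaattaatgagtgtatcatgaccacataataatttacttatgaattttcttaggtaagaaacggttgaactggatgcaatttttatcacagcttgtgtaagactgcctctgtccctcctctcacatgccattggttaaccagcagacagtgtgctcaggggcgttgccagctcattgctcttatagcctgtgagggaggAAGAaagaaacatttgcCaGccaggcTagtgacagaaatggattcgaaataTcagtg
AKR1C2: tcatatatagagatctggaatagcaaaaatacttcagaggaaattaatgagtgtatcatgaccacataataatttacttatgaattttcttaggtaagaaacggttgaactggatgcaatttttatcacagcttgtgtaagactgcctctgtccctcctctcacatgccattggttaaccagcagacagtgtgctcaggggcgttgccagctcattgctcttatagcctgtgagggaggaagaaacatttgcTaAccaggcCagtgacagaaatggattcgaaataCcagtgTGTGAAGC
Of 292 aligned bases 288 were identical (98.6%), whereas AKR1C1 and AKR1C3 shared 78.0% of aligned bases. The windows of AKR1C1 and AKR1C2 hold no TGACNNNGC.

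**Figure D3:**
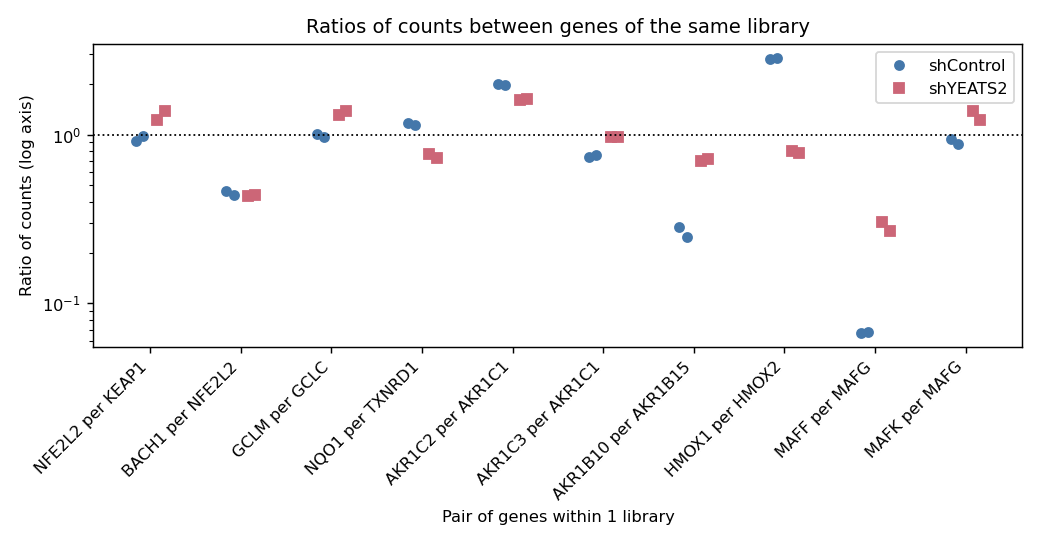
Ratios of CPM between pairs of genes within each library (y axis, log scale), for pairs chosen after the values were seen. Points are single libraries of shControl and shYEATS2. BACH1 per NFE2L2 overlaps between the groups, while NFE2L2 per KEAP1, GCLM per GCLC and AKR1B10 per AKR1B15 are higher and NQO1 per TXNRD1 and HMOX1 per HMOX2 are lower in shYEATS2.

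Between genes, levels were compared as CPM per kb of exon. In shControl NQO1 led at 756 CPM per kb, above 99.8% of tested genes, followed by TXNRD1 at 289, AKR1C1 at 138, GCLM at 80.8, HMOX1 at 78.6, GCLC at 51.5, KEAP1 at 31.1, AKR1B10 at 9.11, NFE2L2 at 7.03 and SRXN1 at 5.13 CPM per kb. GCLM and HMOX1 did not differ beyond their spread, with ranges of 80.0 to 81.6 and 76.9 to 80.4 CPM per kb. In shYEATS2 HMOX1 dropped to 19.3 CPM per kb, from the fifth to the seventh place, while NQO1, TXNRD1, AKR1C1 and GCLM kept the leading places on this scale. AKR1B10 reached 17.5 CPM per kb, close below HMOX1. Of the exon bases of SRXN1 and NFE2L2, 90.7% and 38.4% lie under other genes, so their levels and places per kb are uncertain. The order below the first 3 genes depends on the length used. Per kb of the canonical transcript, in place of all annotated exons, GCLC and HMOX1, both at 117 CPM per kb and not apart beyond their spread, came before GCLM at 89.8 CPM per kb in shControl, and HMOX1 at 28.6 CPM per kb stood eighth in shYEATS2. On this scale NFE2L2 was at 43.0 ± 2.36 beside KEAP1 at 43.3 ± 0.0540 CPM per kb in shControl, and at 59.1 ± 2.85 against 43.3 ± 1.58 in shYEATS2.

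Over 78 other pathway genes, of which 72 were tested, 22 were called higher (30.6%) and 28 lower (38.9%), against 22.6% and 23.6% of all tested genes, with a median log2 fold change of −0.06. With library totals alone 28 were called higher (38.9%) and 17 lower (23.6%), beside 31.9% and 15% of all tested genes under that scaling. Of 22 tested genes of detoxification and export, 7 were called higher (31.8%, beside 22.6% of all tested genes) and 9 lower (40.9%, beside 23.6%). ABCC2, a pump for glutathione conjugates, fell by 0.59, and OSGIN1, an oxidative stress-induced growth inhibitor, rose by 0.59.

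**Figure D4:**
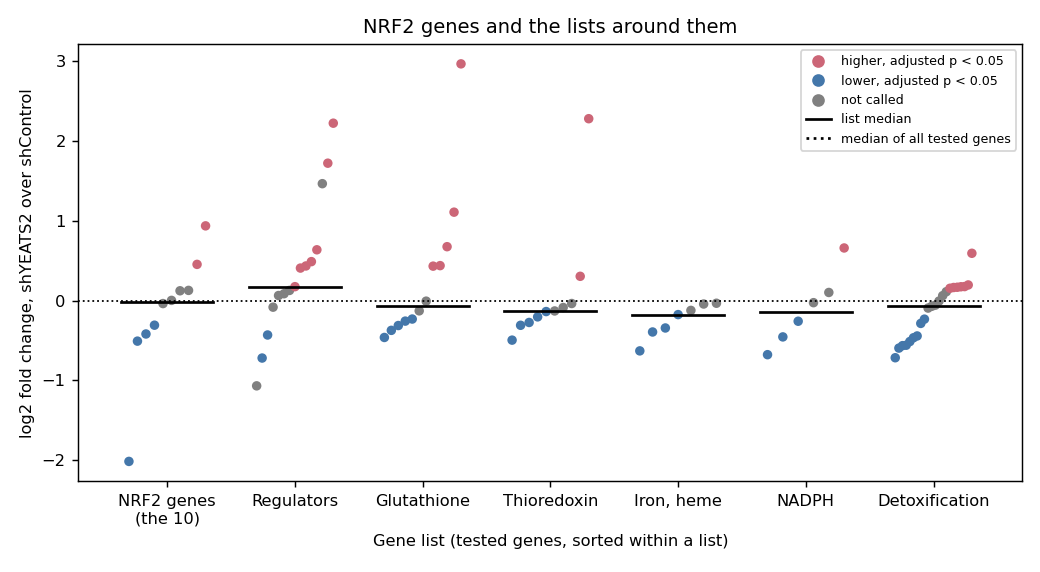
Log2 fold changes (shYEATS2 against shControl) of the tested genes in the list of 10 and in the 6 lists of other pathway genes, each point a gene and each bar the median of its list. The regulators have a median of 0.18 and the heme and iron genes one of −0.17 with 0 genes called higher, while the glutathione genes spread from −0.46 to 2.97.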

How the data were processed

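RNA-seq counts of 4 libraries were analysed. Read pairs were mapped to GRCh38 with STAR by the authors, who deposited HTSeq counts per Ensembl gene without normalization. The library kit was stranded, but the annotation release and the strand setting of the counting are not given in the sources used here. Reads that HTSeq assigned to no gene, because they lay on no feature, were ambiguous or did not map uniquely (15.3% to 16.5% together), were left out.

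Genes kept by filterByExpr entered edgeR 4.0.16 under R 4.3.3 (TMM scaling, robust glmQLFit, glmQLFTest), with Benjamini-Hochberg adjustment and a threshold of 0.05. An exact permutation test of 2 against 2 libraries cannot go below p = 0.333 (two-sided). Replicates differed by more than counting noise (chi-square per degree of freedom 5.95 and 5.39), and edgeR estimated a common coefficient of biological variation of 4.95%. Sharing of the spread across genes gave NFE2L2 and KEAP1 65.5 degrees of freedom and SRXN1 2.29. The alternatives were other scalings, filters and thresholds, DESeq2 1.42.0, limma-voom (limma 3.58.1), thinned counts, a replicate block, each library left out and paralogs summed. Summing SRXN1 with its overlapping gene and canonical transcript lengths were chosen after seeing the data. The fits were also run on simulated counts in which all genes had the same spread and few genes changed. That differs from the data here, so the run does not bear on the calls above.

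The members and lists were chosen with earlier results of these data known. All members, YEATS2, every tested regulator, the AKR1B and AKR1C paralogs and, per other list, the 3 largest changes among called genes of at least 10 mean CPM whose groups did not overlap are named. The values of 1 gene under this rule are not reported here. HNRNPA3, AGPS, AL033397.1, AC092115.2, SLC7A11, HMOX2, ABCC1, ABCC3, ABCC4, EPHX1, ALDH3A2 and the gene pairs of the ratios were chosen after their values were seen. Of the marker genes, CDH1, VWF, SFN, PECAM1, FAP, THY1, TP63, KRT8 and COL1A1 were described after their values were seen.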

Additional observations from a re-analysis of the deposited data

How the results depend on the processing

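NFE2L2, HMOX1, NQO1, GCLC and AKR1C1 kept their direction and their call under every other scaling, filter, test, depth and pairing and without each library, and AKR1B10 did so except in the sum with AKR1B15 (−0.036). Under a threshold of at least 2-fold, of these 6 genes HMOX1 alone kept its call. HMOX1 stayed between −2.12 and −1.88. Library totals alone gave 2567 genes called lower, 4 members called higher, 17 other pathway genes called lower and medians of 0.12 (members) and 0.070 (other pathway genes), and turned AKR1C3 to 0.078, BTRC to 0.054, SLC7A11 to 0.13, ABCC1 to 0.13 and SRXN1 to 0.10. Thinning gave 4 members called higher, beside 3230 of all 14210 genes then tested, and KEAP1 at −0.0035. No filter gave 14 other pathway genes called higher, beside 3074 of all 33310 genes then tested. Their median was then −0.12, with KEAP1 at −0.045. At least 2-fold left 0 members called higher and 1 lower, and 5 and 0 other pathway genes, beside 5.99% and 3.70% of all tested genes. With DESeq2's size factors SLC7A11 was at 0.00018 and ABCC1 at 0.0015, with upper quartiles at 0.0074 and 0.0077, and with DESeq2 at 0.00034 and 0.0015, and limma-voom gave SRXN1 at 0.031. Leaving out 1 library gave 2 to 4 members called higher (4 without shYEATS2 replicate 1), 13 to 21 other pathway genes called higher (13 without shControl replicate 1), member medians of −0.17 to 0.051, other pathway medians of −0.11 to −0.039, and KEAP1 at −0.052 to 0.032, SLC7A11 at −0.10 to 0.069, ABCC1 at −0.083 to 0.047, SQSTM1 at −0.0023 to 0.15 and SRXN1 at −0.43 to 0.51. In each fit without 1 library, fewer of all tested genes were called higher than with all libraries. Whether the lower counts of other pathway genes called higher only follow that wider drop was not tested. Where a value changed, the cause was not tested beyond the construction of the alternative. For single genes, 641 of the values under an alternative kept direction and side of the threshold, 16 passed it newly, 20 lost it and 24 changed sign.

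The replicate numbers were not used for pairing, as they are not stated to mark a shared batch. The differences between libraries 1 and 2 of the 2 groups had a correlation of −0.0189 across genes. With the replicate block 3870 genes were called higher and 4142 lower, and 4 members higher and 4 lower, with GCLM (adjusted p = 0.029) and TXNRD1 (adjusted p = 0.040) added by edgeR's quasi-likelihood test.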

Other observations

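Several enzymes and pumps that handle NRF2-related substrates had values not given above, and they were chosen after their values were seen. All called genes of this paragraph fell, whereas of 22 tested genes of detoxification and export 7 were called higher and 9 lower. Of the ABCC pumps, which export glutathione and glucuronide conjugates, ABCC3 fell from 288 and 293 CPM in shControl to 200 and 193 CPM in shYEATS2 (log2 fold change −0.56, edgeR's quasi-likelihood test, adjusted p = 1.8e-12). ABCC4 fell by 0.28 on the log2 scale (adjusted p = 0.00090, edgeR's quasi-likelihood test), and this call was lost with library totals alone (adjusted p = 0.079). ABCC1 was at 286 and 286 CPM in shControl and at 296 and 273 CPM in shYEATS2, where the groups overlapped. The epoxide hydrolase EPHX1 fell by 0.51 and the fatty aldehyde dehydrogenase ALDH3A2 by 0.56 (adjusted p = 2.1e-11 and 3.8e-12, edgeR's quasi-likelihood test).

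The noncoding AL033397.1, which lies on the same strand as part of GCLC, rose by 1.10 ± 0.08 on the log2 scale while GCLC fell (edgeR's quasi-likelihood test, adjusted p = 3.4e-18).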
